A study of Homo sapiens with 2 samples.

Results

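The genes described here are 9 members of the epidermal growth factor (EGF) system: the ligands AREG, EREG, HBEGF and TGFA, the receptors EGFR, ERBB2 and ERBB3, and the negative regulators ERRFI1 and LRIG1. They were chosen by name, and every array probe that the platform annotation assigns to them was taken, whatever its value. Of the 20045 genes with a named probe, 8 belonged to this set, with 17 probes. AREG had no named probe and is not analysed here. A probe counted as detected with a detection p-value under 0.01 on at least 1 array, which 9 of the 17 probes met. They covered 7 of the 8 genes, all except LRIG1.

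The values come from HCT116 cells, a human colorectal carcinoma line labelled p53+/+. Both cultures were grown in DMEM with serum to near confluence. One received vehicle and the other SB590885, a kinase inhibitor directed at RAF, at 10 nM. The sources used here do not state for how long. Either condition was measured on 1 Illumina bead array, so no value below has a replicate error, no test was possible, and each ratio is one between these 2 cultures. A ratio is the log2 of the SB590885 intensity over the vehicle intensity. Intensities were compared between arrays for the same probe only, because probes for different genes differ in brightness for reasons other than RNA level. Fewer cells with a transcript and less of it per cell cannot be told apart in such bulk RNA.

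EGF ligands are made as membrane-bound precursors and released by metalloproteases. They bind EGFR, or the related ERBB4, and drive receptors into pairs that signal through RAS, RAF, MEK and ERK and through phosphoinositide 3-kinase. ERK output in turn raises several ligands and the inhibitor ERRFI1, so that this gene set is both the input of the RAF pathway and part of its output. In colon epithelium these ligands maintain proliferation of the crypt, and AREG and EREG are known as markers of EGFR dependence in colorectal cancer.

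Of the 47318 probes, 33.7% were detected with vehicle and 35.3% with SB590885. Detection began at an intensity of 132.2 with vehicle and 129.8 with SB590885. Background was left in the deposited values, which shrinks the ratio of a dim probe, so ratios after background correction with limma's neqc are given for the members and for pathway genes that they take past 1.5-fold. Colon epithelial markers were detected for 6 of 11 genes (EPCAM, KRT8, KRT18, KRT19, CDH1 and CDX2), while CDH17, CDX1, CEACAM5, LGALS4 and VIL1 were not detected. The summed intensity of the detected epithelial markers was 12709 with vehicle and 13913 with SB590885. By brightest probe 5 of these 6 genes were lower and 1, EPCAM, was higher (4420 to 6439). EPCAM's other detected probes had log2 ratios of -0.12 and 0.11, so the sum gives no direction for the markers as a set. Leukocyte markers were detected for 2 of 12 genes (409.8 and 416.6 in sum), without PTPRC or CD3E. Detected were CD68 on both arrays (276.1 and 289.3) and CD79A with vehicle only. Stromal and endothelial markers were detected for 4 of 12 genes (554.7 and 541.2 in sum), without PECAM1 or VWF. COL1A1 was detected on both arrays (170.7 and 157.8), COL1A2 and ACTA2 with vehicle only and DCN with SB590885 only. Both pairs of sums include readings of genes not detected on that array.

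Among the ligands, EREG was the one farthest from its vehicle value. EREG encodes epiregulin, a ligand of EGFR and ERBB4. Its probe ILMN_1657248 read 185.2 with vehicle and 271.8 with SB590885, a log2 ratio of 0.55, or 1.47-fold higher. After background correction the same probe read 88.0 and 174.6, which is 1.98-fold higher. Of 10430 detected genes, 3.31% had a ratio at least as far from 0 as EREG, in either direction. Among the 1647 genes within 0.25 log2 units of its mean intensity, 40 did (2.43%). With 1 probe for EREG, the ratio was not repeated within the arrays either.

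The upstream regions of EREG, the member with the largest ratio, and of ERRFI1, the next as deposited, are shown because both are known ERK-responsive genes. Each is the 250 bases before the annotated start, from RefSeq on GRCh38.p14. EREG lies at chr4:74364895-74365144 on the plus strand and ERRFI1 at chr1:8026310-8026559 on the minus strand. Capitals mark matches, on either strand, to any of 5 motifs: AP-1 (TGANTCA), the cyclic AMP response element (TGACGTCA), ETS (CCGGAAGT), the TATA box (TATAAA) and the GC box (GGGCGG).
EREG: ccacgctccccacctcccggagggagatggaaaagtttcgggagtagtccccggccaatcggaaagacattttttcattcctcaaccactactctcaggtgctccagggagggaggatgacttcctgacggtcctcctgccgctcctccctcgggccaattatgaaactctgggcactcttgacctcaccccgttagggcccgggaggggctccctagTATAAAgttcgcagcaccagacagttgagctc
ERRFI1: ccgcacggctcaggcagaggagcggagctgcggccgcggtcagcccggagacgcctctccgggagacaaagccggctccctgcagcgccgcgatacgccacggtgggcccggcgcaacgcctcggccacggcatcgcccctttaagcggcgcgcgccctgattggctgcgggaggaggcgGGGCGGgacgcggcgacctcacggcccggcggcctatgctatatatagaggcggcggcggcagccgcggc

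The EREG window held a TATA box, 32 to 27 bases before the start, and no other of these letters. The ERRFI1 window held a GC box and no other. Over all 35116 such windows of the reference table, 10.7% held TATAAA, 42.6% the GC box, 6.57% AP-1, 3.42% ETS and 1.65% the cyclic AMP response element. The table held windows for 8 of the 9 members, 13 in all. Of these, 3 held TATAAA, 8 a GC box, 3 AP-1 (1 each of EGFR, ERBB2 and LRIG1), 1 ETS (ERBB2) and 1 the cyclic AMP response element (AREG). EGFR had 2 windows at separate starts, with AP-1 and TATAAA in 1 and only GC boxes in the other. LRIG1 had 4 windows, some of which overlap, so the same GC boxes are counted more than once. A match is a description of the letters and no measured site, and these arrays hold no binding data.

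In RefSeq gene order EPGN, EREG, AREG and BTC follow one another on chromosome 4, a cluster of EGFR ligand genes. Of the 4, only EREG and BTC had a named probe, and EREG was detected. BTC, which encodes betacellulin, read 114.2 with vehicle and 125.6 with SB590885 and was not detected on either array. EPGN, like AREG, had no named probe and is not analysed here. PARM1, the next protein-coding gene beyond BTC and no EGF ligand, was looked at after its values were seen. It read 161.3 and 224.4, a log2 ratio of 0.48, and what this has to do with EREG was not tested.

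TGFA, which encodes transforming growth factor alpha, had a pair of detected probes that gave opposite signs. Probe ILMN_2083946 read 379.8 with vehicle and 414.5 with SB590885, a log2 ratio of 0.13. Probe ILMN_1805175 read 371.3 and 332.3, a ratio of -0.16. The first is annotated to transcript NM_003236 and the second to NM_001099691, which are both current RefSeq transcripts of TGFA. The pair differed by 0.29 on the log2 scale. Among 2631 genes with several detected probes, 21.4% differed by as much between their 2 brightest, and the SD of that difference was 0.25. No direction can be given for TGFA from these arrays: the mean over its probes was -0.02.

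HBEGF encodes heparin-binding EGF-like growth factor, an early response gene of ERK signalling in many cells. Its probe ILMN_2121408 read 252.2 with vehicle and 267.2 with SB590885, which is 5.92% higher, a log2 ratio of 0.08. Of all detected genes, 67.3% lay at least as far from 0. Of the ligands not among the 9 members, EGF, BTC and the neuregulins NRG1, NRG2, NRG3 and NRG4 had named probes and EPGN had none. None of these ligands was detected at p under 0.01, nor was ERBB4, the fourth receptor. The ligand transcripts measurable here were therefore those of EREG, HBEGF and TGFA.

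**Figure D1:**
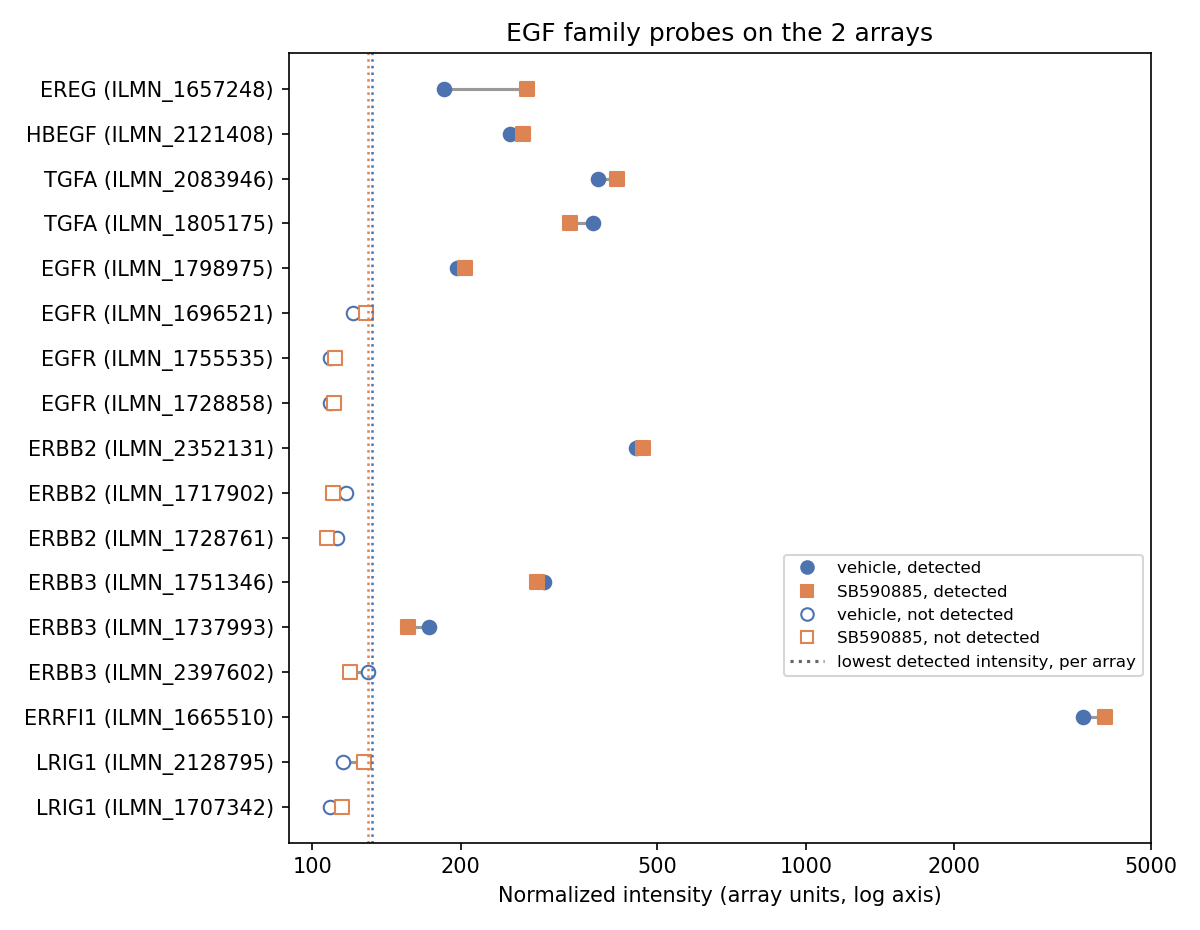
Normalized intensity (array units, log axis) of each of the 17 EGF family probes with vehicle (circles) and SB590885 (squares), with filled symbols for detected and open symbols for not detected probes and a dotted line at the lowest detected intensity of each array. The symbols of a probe lie close together for every probe except that of EREG, which went from 185.2 to 271.8, and the TGFA probes moved in opposite directions.

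The receptors were close to their vehicle levels. EGFR, the receptor of all 4 ligands named above, was read by probe ILMN_1798975 at 196.8 with vehicle and 203.7 with SB590885, a log2 ratio of 0.05. This probe is annotated to NM_005228, the full-length receptor. The other EGFR probes are annotated to NM_201282 and NM_201284, which encode shorter forms without the kinase domain. None of these 3 was detected, the brightest being ILMN_1696521 at 120.8 and 128.4.

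ERBB2, the partner receptor with no known ligand of its own, had a log2 ratio of 0.05, from 452.3 to 468.5 on probe ILMN_2352131. Its other probes lay between 107.4 and 117.1 on the arrays and were not detected, although 1 of them carries the same annotated transcript, NM_004448. The dark probes therefore give no level for ERBB2.

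ERBB3, the neuregulin receptor whose kinase is nearly inactive, was lower on each of its 3 probes. The full-length probe ILMN_1751346 (NM_001982) read 295.0 with vehicle and 285.0 with SB590885, a ratio of -0.05. Probe ILMN_1737993, annotated to the short secreted form NM_001005915, read 172.1 and 156.3, a ratio of -0.14. A further probe for that form, ILMN_2397602, read 129.7 and 119.4 and was not detected. Background correction widened the short-form probe's ratio to -0.34 and left the full-length probe at -0.07. The 2 detected ERBB3 probes differed by 0.09 on the log2 scale as deposited and by 0.27 after correction. The SD of that difference over genes with several detected probes was 0.25 and 0.40.

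The negative regulators gave 1 bright and 1 dark gene. ERRFI1 (also called MIG6), which binds the EGFR kinase domain and blocks it, was the brightest probe of the set. Probe ILMN_1665510 read 3647 with vehicle and 4042 with SB590885, which is 10.8% higher, a log2 ratio of 0.15. Background hardly affects a probe this bright, and correction left the ratio at 0.15. Of the 137 detected genes within 0.25 log2 units of its mean intensity, 72 lay at least as far from 0 (52.6%).

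LRIG1, a transmembrane protein that lowers receptor levels and marks intestinal stem cells, was not detected. Its probe ILMN_2128795 read 115.2 and 127.2, with detection p-values of 0.338 and 0.0273, and ILMN_1707342 read 108.5 and 115.2. Of its relatives, LRIG2 was detected with a ratio of -0.15 (172.3 to 155.6) and LRIG3 was not detected. All 9 detected probes had a detection p of 0 on both arrays, the dimmest being ERBB3's ILMN_1737993. The nearest below the limit was ERBB3's ILMN_2397602, with a p of 0.0156 on the vehicle array, before EGFR's ILMN_1696521 (0.0234) and LRIG1's ILMN_2128795 on the SB590885 array.

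As a set, 6 of the 7 detected genes were higher with SB590885 and ERBB3 was lower, and with the mean over probes TGFA also turned lower, which left 5 of 7 higher. The median log2 ratio of the 7 was 0.08, against -0.00082 over all detected genes, of which 49.8% were higher. No member reached 1.5-fold, a size that 2.67% of all detected genes reached in either direction, 1.51% on the higher and 1.16% on the lower side. After background correction 1 of the 7, EREG, was at least 1.5-fold higher, as were 5.16% of all detected genes. Without EREG the members ran from -0.05 to 0.15. Ratios at least as far from 0 as theirs were held by between 45.6% (ERRFI1) and 80.4% (ERBB3) of detected genes.

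**Figure D2:**
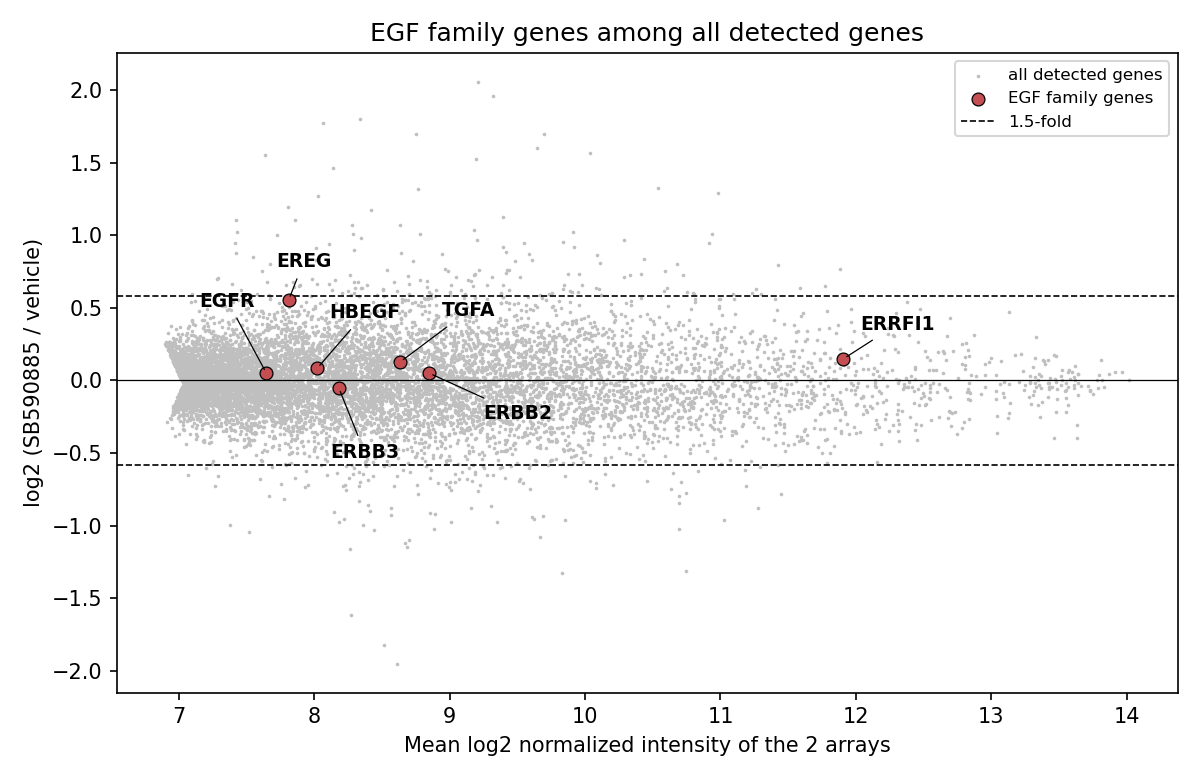
Log2 ratio of SB590885 over vehicle against the mean log2 normalized intensity of the 2 arrays, for all 10430 detected genes (grey) and the 7 detected EGF family genes (red), with dashed lines at 1.5-fold. EREG at 0.55 lies just under the upper dashed line and the other 6 lie in the bulk of the genes, from -0.05 to 0.15.

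Genes that release or carry the ligands were split. Of 14 listed genes 12 were detected, 5 higher and 7 lower, with a median ratio of -0.02. ADAM19 was the only one past 1.5-fold as deposited, where 1.51% of all detected genes were at least 1.5-fold higher. This metalloprotease is reported to cleave neuregulin in mouse cells. It read 461.6 with vehicle and 1495 with SB590885, a log2 ratio of 1.70, on probe ILMN_1713751, while its other probe was not detected (105.9 and 116.3). ADAM15 followed at 0.32 on its brightest probe, with 0.33, 0.02 and -0.04 on its other detected probes. ADAM17, the main sheddase of EREG, HBEGF, TGFA and AREG, read 239.0 and 237.1 on its brightest probe, a ratio of -0.01. Another ADAM17 probe, detected with vehicle only, had -0.10. The ADAM17 regulators RHBDF1, RHBDF2 and FRMD8 had -0.19, -0.04 and 0.07 on their brightest probes. Other detected RHBDF2 probes had -0.04 and 0.02. ADAM17 and its regulators were named after their values were seen.

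ADAM10, the main sheddase of EGF and betacellulin, was lowest of that list at -0.41 (206.3 to 155.1). Background correction made this 1.88-fold lower (4.63% of all detected genes were then at least 1.5-fold lower), and a second ADAM10 probe, detected with vehicle only, had -0.10. NRDC, a metalloprotease that aids shedding of HBEGF, was next lowest at -0.25. The ratios farthest from 0 in the list thus belonged to ADAM19 and ADAM10.

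Adaptors and effectors that bind the receptors were divided evenly. Of 16 with a named probe 14 were detected, 7 higher and 7 lower, with a median ratio of 0.01, or -0.0032 with the 2 genes detected on 1 array set at their bound. GAB2, a docking protein for phosphoinositide 3-kinase and PTPN11, was highest at 0.49 (139.7 to 196.2), or 2.33-fold higher after background correction. Its vehicle reading lay close to the lowest detected intensity of 132.2. The kinase SRC was next at 0.38. The other probes of GAB2 and SRC were not detected. STAT3 had -0.37 on its brightest probe, but 0.04 and -0.01 on its other detected probes. PTPN11, the phosphatase SHP2, had -0.34. None of the 14 was past 1.5-fold as deposited. After background correction 2 were at least 1.5-fold higher, GAB2 and PIK3R1 (a kinase subunit detected with SB590885 only, at least 1.80-fold). At least 1.5-fold lower was 1, PIK3CB, a catalytic subunit of the same kinase, at 1.60-fold. Of all detected genes 5.16% were then at least 1.5-fold higher and 4.63% at least 1.5-fold lower.

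Of 32 detected genes of receptor turnover and inhibition 20 were lower and 12 higher, as also after background correction. The list is mixed in function, so the counts give no direction for receptor removal. Of all detected genes 49.8% were higher as deposited. The median ratio was -0.03, and none was past 1.5-fold as deposited. In those values PTPN1, a phosphatase that acts on EGFR, was lowest at -0.54 (1368 to 942.3), followed by RAB7A, which takes endosomes to the lysosome, at -0.47 (2068 to 1491). By brightest probe CBLB, a ubiquitin ligase of activated receptors, was highest at 0.29, before HGS, an endosomal sorting protein, at 0.20. STUB1, of the same list, had -0.01 on its brightest probe and 0.36 on a second detected probe. After background correction the order changed: the ubiquitin ligase NEDD4 was 1.96-fold, the endocytic adaptor CD2AP 1.57-fold and PTPN1 just over 1.5-fold lower. CBLB was 1.65-fold higher. Over all detected genes 4.63% were then at least 1.5-fold lower and 5.16% at least 1.5-fold higher. A second NEDD4 probe, detected with SB590885 only, had a deposited ratio of 0.10. CBL, a related ligase, was looked up after the values were seen and had -0.28 and -0.17 on its probes. CBLC, of the same family and looked up likewise, had 0.11. CAV1, a caveolar protein also chosen in that way, had -0.36 and -0.43 on its probes.

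Among 22 detected ERK-induced genes, 9 were higher and 13 lower, with a median ratio of -0.06. They ran from EGR1 at -0.39 and ETV5 at -0.27 to PLAUR at 0.32 and DUSP6 at 0.37 on their brightest probes. A second detected probe gave 0.06 for DUSP6, and the other detected PLAUR probes gave 0.06 and 0.14. The EREG ratio of 0.55 thus lay above that of each of these 22 genes, and the ERRFI1 ratio of 0.15 lay inside their range. All lists share the same pair of arrays, so their ratios are not independent of each other. SPRY2 is counted both here and among the genes of receptor turnover and inhibition.

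**Figure D3:**
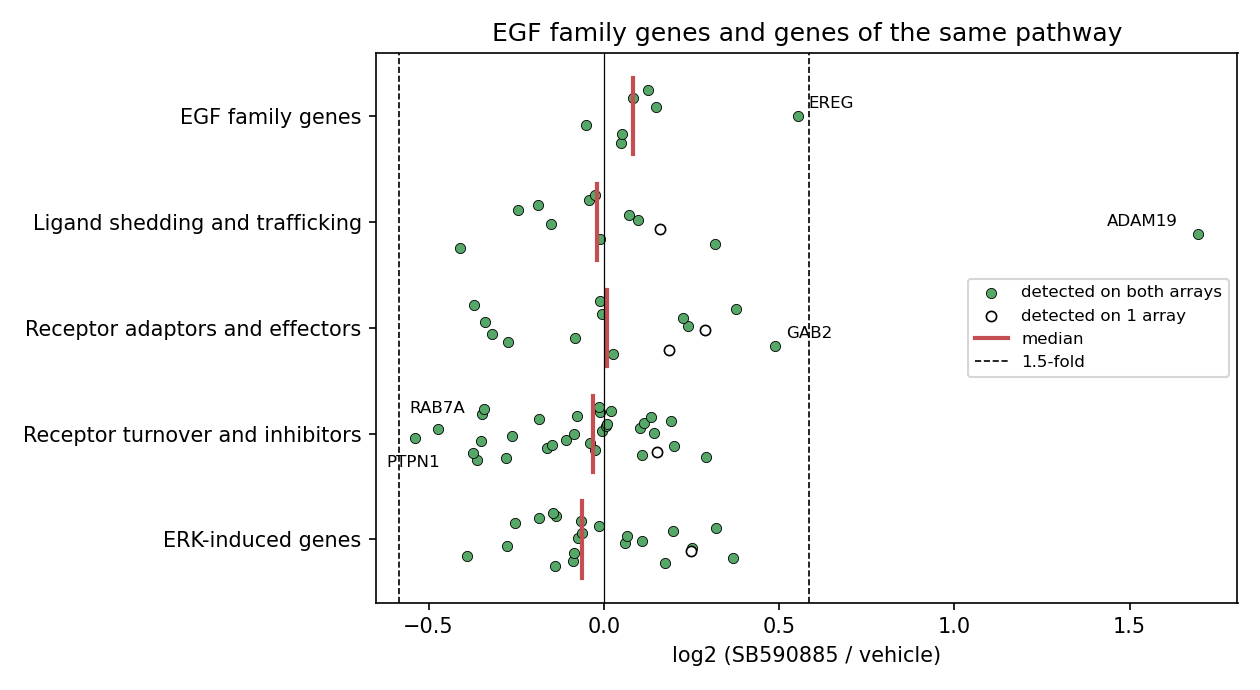
Log2 ratio of SB590885 over vehicle (x axis) for each detected gene of the EGF family and of 4 lists of the same pathway (rows), with a red bar at each list's median, open circles for genes detected on 1 array and dashed lines at 1.5-fold. The medians run from -0.06 (ERK-induced genes) to 0.08 (EGF family genes), and ADAM19 at 1.70 is the 1 gene beyond the dashed lines.

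**Figure D4:**
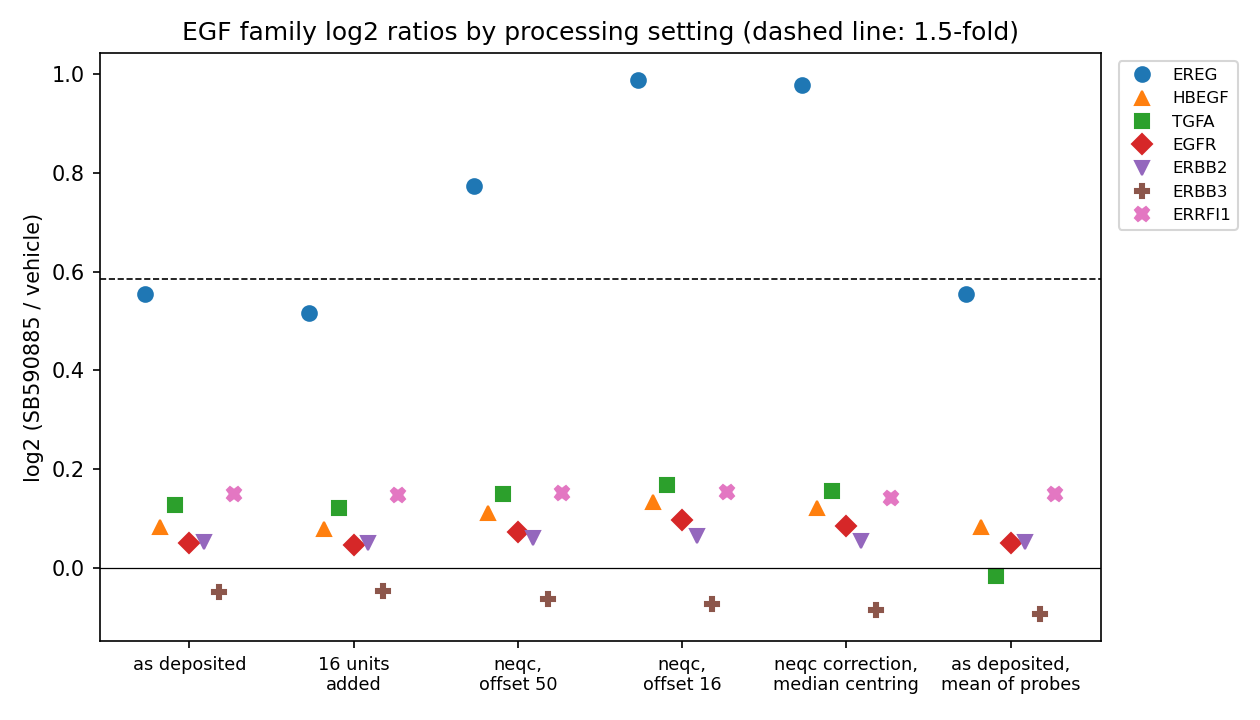
Log2 ratio of SB590885 over vehicle of the 7 detected EGF family genes (symbols) as deposited and under 5 other settings, with a dashed line at 1.5-fold. EREG lies between 0.52 and 0.99 and above the dashed line only where background was corrected, whereas the other 6 genes stay between -0.09 and 0.17 and TGFA changes sign with the mean of its probes.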

How the data were processed

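Per the labels' protocols, RNA was purified on columns and made into biotinylated cRNA for Illumina arrays. The sources used here name no array software, normalization or genome build. The authors deposited normalized intensity values on a linear scale and detection p-values, 1 per probe and array. Ranked by size, the intensities of both arrays match to within 0.129 units, a mark of quantile normalization. The intensities deposited as non-normalized are the normalized ones times 1.025, and the series matrix repeats the normalized ones, so no raw signal was used.

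Log2 ratios were computed from the normalized intensities. Probes were named from the platform annotation (30111 with 1 gene, 8 with several, 17199 not listed), with symbols updated through Entrez identifiers for 30072. A gene was represented by its brightest detected probe. A gene detected on 1 array had a bound: its ratio to the higher of its own and the lowest detected intensity there. Background correction used limma 3.58.1 (neqc, offset 16, in R 4.3.3), starting from normalized values. The size rule was tested on simulated data. Named from each pathway list were the 2 highest and 2 lowest genes and any past 1.5-fold. Members and lists were chosen with earlier results of these data known. With 1 array per condition no test was run, and the number of arrays limits the precision.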

Additional observations from a re-analysis of the deposited data

How the results depend on the processing

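Background left in the deposited values decided sizes. EREG moved from a log2 ratio of 0.55 to 0.99 with neqc at offset 16 and to 0.98 with that correction and median centring. Genes at least 1.5-fold higher numbered 157 as deposited, 538 with neqc at offset 16, 303 at offset 50 and 513 with median centring. Those at least 1.5-fold lower numbered 121, 483, 241 and 509. At 2-fold the counts were 26 and 14. The other 104 of 114 values under 9 alternatives moved by less than the SD of 0.247 between probes of a gene, or, for counts, by less than 1.5 times. That SD exceeds each member ratio except EREG's and each list median in size, so the count says little about these small ratios. A change of detection filter could not alter the ratio of a member detected on both arrays. TGFA was the 1 member whose sign turned, to -0.02 with the mean over its probes. EREG ranged from 0.52 to 0.99. LRIG1 entered only with a detection p under 0.05 or with no filter. No paired analysis was possible because each condition had 1 array. Dim probes such as those of EREG, EGFR and ERBB3 lie close to background, which limits how well their ratios are known.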
